A study of Mus musculus with 3 samples.

Results

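The SoxF transcription factors are 3 genes, *Sox17*, *Sox18* and *Sox7*, taken by name from the 27,994 genes of the count table. The data are transcriptomes of 9,562 single cells from adult mouse heart endothelium, labelled as fresh tissue and as cultures co-aggregated with E11.5 Mesp1(der) PSCs, stromal cells of the embryonic aorta–gonad–mesonephros region that carry PDGFRA. The endothelial cells were sorted from the hearts of 12–16-week-old female mice, as cells with CD31 and VE-Cad on a gate that left out PDGFRA+ and PDGFRB+ cells and those with CD45 or CD41. They were profiled at 0 h and, after a second sort for CD31 and VE-Cad and against PDGFRA, at 24, 48, 72 and 96 h of culture in medium with IL-3, SCF and Flt3L at 100 ng/ml each, with 25,000 endothelial cells and 150,000 PSCs per co-aggregate. The cells as a whole therefore mix these 5 times, and how each group below divides over the times is not known. The labels give 3 pools of such cells (A, B and C), with no untreated culture among them. Each cell has 1 of 7 cluster numbers made by the authors, and its barcode has 1 of 3 library suffixes. No suffix was tied to a pool and no cell to a time, so all cells were treated as 1 sample and no test was run. Intervals in brackets are exact 95% intervals that cover counting error only, and values by library describe 3 libraries of unknown pool. Before suffixes, 13 barcodes occur in 2 or more libraries.

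SoxF proteins bind DNA through a high-mobility-group (HMG) box and act in vessel formation with a large overlap in function. *Sox17* is known for its part in arterial identity and in the haemogenic endothelium, from which blood cells arise through an endothelial-to-haematopoietic transition (EHT). *Sox18* is known for starting the lymphatic programme through *Prox1*, and *Sox7* for its part in early endothelial and blood development. *Runx1* encodes the transcription factor required for EHT, and SOX17 has been described as holding it down in arterial cells.

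In GENCODE coordinates on mm10 (GRCm38), *Sox17* (ENSMUSG00000025902) lies on the minus strand at chr1:4490931-4497354 and overlaps the transcript Gm37587 of the other strand. *Sox18* (ENSMUSG00000046470) lies on the minus strand at chr2:181669836-181671640, and *Sox7* (ENSMUSG00000063060) on the plus strand at chr14:63943673-63950732. Neither of these overlaps an annotated gene. A level below is the number of unique molecular identifiers (UMIs) of a gene per 10,000 UMIs of a group of cells. These UMIs mark 3′ ends, 1 per captured molecule, so levels were not divided by gene length.

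The cells were sequenced to a median of 21,225.5 UMIs, from 13,440.5 in library 2 to 38,312 in library 3, and the median by cluster ran from 7,875 in cluster 1 to 36,065.5 in cluster 5. The clusters were checked against marker lists. The summed level of 10 endothelial markers was 61.1, 64.8 and 43.6 in clusters 0, 1 and 2 and between 4.94 and 8.11 in the others. Arterial markers summed to 49.3 in cluster 0 and 7.82 in cluster 2, with cluster 1 between them, and blood markers to 43.4 in cluster 5 and 196 in cluster 6. Clusters 3 and 4 had few of either, and stromal markers reached 20.5 in cluster 4 against at most 2.62 elsewhere. The sorted endothelial label thus matched the markers in clusters 0, 1 and 2, and the other 4 clusters are referred to by number.

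All 3 SoxF genes were concentrated in clusters 0, 1 and 2, where the endothelial markers were. *Sox17* was highest in cluster 0 at 3.44 UMIs per 10,000 (3.34–3.54), followed by cluster 1 at 1.91 (1.82–2.004) and cluster 2 at 1.23 (1.21–1.25). In cluster 0 the level of *Sox17* was 3.73, 3.39 and 3.17 in libraries 1, 2 and 3. It was 1.95, 1.63 and 2.03 in cluster 1, and 1.26, 1.17 and 1.25 in cluster 2. No library value of *Sox17* in one of these clusters overlapped with those of another, and the order of the clusters was the same in each library.

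*Sox18* did not follow that order. Its level was 2.96 (2.85–3.08) in cluster 1, 2.66 (2.58–2.76) in cluster 0 and 1.75 (1.73–1.78) in cluster 2. By library, *Sox18* stood at 3.099, 2.26 and 2.58 in cluster 0, at 3.06, 3.03 and 2.77 in cluster 1 and at 1.998, 1.57 and 1.68 in cluster 2. Clusters 0 and 1 overlapped over the libraries for *Sox18*, with both above cluster 2 in each. The least abundant of the 3 was *Sox7*, at 0.959 (0.906–1.015), 0.716 (0.660–0.775) and 0.413 (0.402–0.423) in clusters 0, 1 and 2. The libraries gave 0.9503, 1.02 and 0.915 for *Sox7* in cluster 0, 0.673, 0.781 and 0.733 in cluster 1, and 0.402, 0.486 and 0.359 in cluster 2. *Sox7* thus kept the order of *Sox17*.

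**Figure D1:**
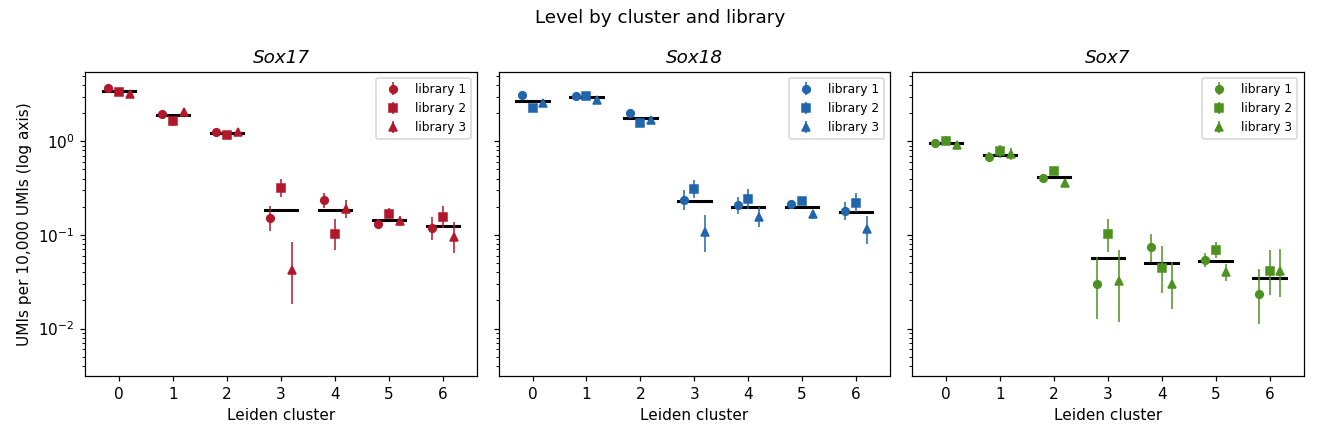
Levels of the 3 SoxF genes (UMIs per 10,000 UMIs, log axis) in each Leiden cluster. Symbols are the 3 libraries with exact 95% Poisson intervals and black lines are all libraries summed. Clusters 0, 1 and 2 lie above clusters 3 to 6 for every gene and library, for example 3.44 against at most 0.186 for *Sox17* with libraries summed.

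Set against cluster 2, *Sox17* was 2.80-fold higher in cluster 0 (log2 ratio 1.48, 1.43–1.53), *Sox7* 2.32-fold (1.22, 1.13–1.31) and *Sox18* 1.52-fold (0.60, 0.55–0.66). All 3 genes passed a ratio of 1.5, as did 12.9% of 3,412 genes with a mean level of at least 0.5 in this comparison, which *Sox7* reached only through cluster 0. In library 2 alone the *Sox18* ratio was 1.44. *Sox17* ranked above 3,302 of those genes and *Sox18* above 2,987. The markers of cluster 0 were arterial. Of 16 arterial genes listed, 12 had the minimum level, and all 12 were past 1.5-fold higher. They were led by the gap junction genes *Gja5* (5.09 against 0.0599) and *Gja4* (13.9 against 0.905). Of 5 venous genes, 3 were past 1.5-fold lower, against 9.7% of all genes, among them the receptor gene *Aplnr* (0.373 against 3.84) and *Nr2f2* (0.122 against 1.16), which encodes a venous transcription factor. *Vwf*, which encodes von Willebrand factor and was listed with the venous genes, was higher in cluster 0 (5.21 against 0.216). *Gja5*, *Aplnr*, *Nr2f2* and *Vwf* each had the minimum level only through the cluster where they were higher, which favours a call. Because the clusters were also made from these counts, these counts of genes describe cluster 0 and are no independent evidence.

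In cluster 1 the 3 genes lay close together relative to cluster 2, with log2 ratios of 0.63 (0.56–0.71) for *Sox17*, 0.76 (0.70–0.82) for *Sox18* and 0.79 (0.67–0.92) for *Sox7*. All 3 were past 1.5-fold, in a comparison where 24.2% of 3,549 genes were as well, but *Sox7* reached the minimum level only through cluster 1. Between clusters 0 and 1 the members differed from each other. *Sox17* was 1.801-fold higher in cluster 0 (log2 ratio 0.85, 0.77–0.93) and *Sox7* 1.34-fold (0.42, 0.28–0.57), in each library. *Sox18* was lower in cluster 0 by a log2 ratio of -0.15 (-0.23 to -0.08), with library 2 at -0.42 (-0.58 to -0.27). In libraries 1 and 3 the *Sox18* ratio was 0.02 (-0.10 to 0.13) and -0.10 (-0.24 to 0.03), so these clusters were not told apart there.

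The make-up of the family followed from this. *Sox17* accounted for 48.7% of all SoxF UMIs in cluster 0 (47.6–49.7%), 34.2% in cluster 1 (32.8–35.5%) and 36.2% in cluster 2 (35.8–36.6%). *Sox18* held the larger share in clusters 1 and 2, at 53.0% and 51.7%, and 37.7% in cluster 0. The share of *Sox7* stayed between 10.3% and 13.6% in all 7 clusters. Capture can differ between transcripts, so these shares compare clusters and do not rank the proteins.

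Per cell, 5,000 UMIs were drawn from each of the 9,472 cells that had as many, so that deep and shallow cells could be compared. *Sox17* was then detected in 547 of 722 cells of cluster 0 (75.8%, 72.5–78.8%), in 48.2% of cluster 1 (44.5–51.8%) and in 40.2% of cluster 2 (38.9–41.6%). *Sox18* was detected in 69.5%, 58.3% and 55.6% of the cells of clusters 0, 1 and 2, and *Sox7* in 35.3%, 27.9% and 19.8%. At this depth at least 1 SoxF gene was found in all but 7.20% of the cells of cluster 0 (5.43–9.34%). No SoxF gene was found in 21.3% of cluster 1 and 22.4% of cluster 2. All 3 genes were found together in 20.2% of the cells of cluster 0 (17.3–23.3%), 11.0% of those of cluster 1 (8.85–13.5%) and 5.30% of those of cluster 2 (4.72–5.93%). In cluster 0 the most common combination was *Sox17* with *Sox18* and without *Sox7*, in 33.4% of cells, and in cluster 2 it was *Sox18* alone, in 26.2%.

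**Figure D2:**
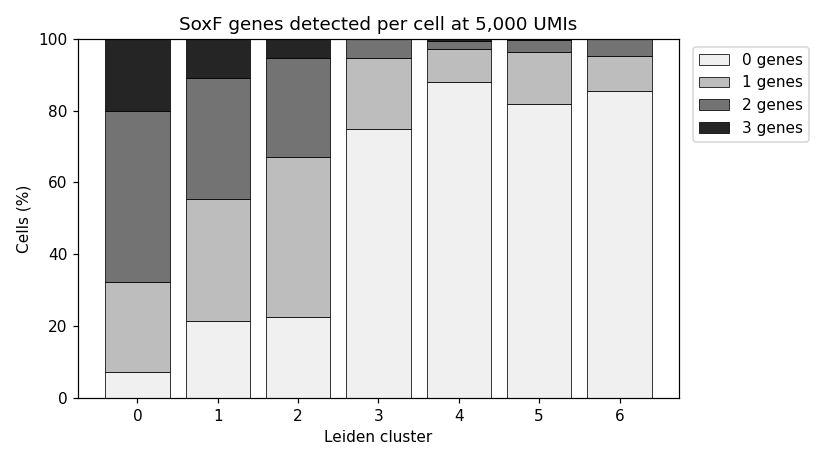
Share of cells (%) in each Leiden cluster by the number of SoxF genes detected after 5,000 UMIs were drawn per cell. Each bar sums to 100%. Cells with all 3 genes are 20.2%, 11.0% and 5.30% of clusters 0, 1 and 2, and cells with none are at least 74.9% of clusters 3 to 6.

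In cluster 1, detection of *Sox18* moved with that of *Sox17* in each library, and with that of *Sox7* when pooled. *Sox18* was found in 67.7% of cells with *Sox17* (62.6–72.5%) and in 49.5% of cells without it (44.4–54.6%). *Sox18* was also found in 70.2% of the cells of cluster 1 with *Sox7* and in 53.6% of those without. By library, the share of cells with *Sox18* was higher by 16.6, 23.1 and 17.1 percentage points where *Sox17* was found, and by 20.6, -1.54 and 25.7 points where *Sox7* was found. For *Sox17* and *Sox7* in cluster 1 the pooled differences were smaller, at 4.18 and 5.18 points. In cluster 0 all pairs differed by 4.36 to 8.15 points when pooled, but by library they ran from -11.9 to 19.4 points with both signs, so no direction is read there. In cluster 2 the pooled differences were 1.63 to 4.53 points. Differences between clusters were not tested. Blood markers reached a sum of 11.47 in cluster 1 and of 1.93 and 0.964 in clusters 0 and 2. Of 745 cells in cluster 1, the 30 with a UMI of *Ptprc*, which encodes the blood-cell surface protein CD45, had a *Sox17* level of 0.446 and a *Sox18* level of 0.924, against 2.04 and 3.15 in the other 715. The part of these cells in the joint detection was not tested.

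Within cluster 2, the SoxF levels differed between cells split by the transcripts of other vessel genes. These splits, and those by *Cdh5*, *Ptprc* and number of *Runx1* UMIs, were chosen after the levels by cluster had been seen. The 1,049 cells with a UMI of *Gja4* or *Gja5* at 5,000 UMIs had a *Sox17* level of 1.76 (1.70–1.82) against 1.13 (1.11–1.15) in the other 4,328. *Sox18* was at 2.32 against 1.65 and *Sox7* at 0.892 against 0.324, the widest gap of the 3. In the 2,212 cells with *Nr2f2* all 3 were lower than in the cells without it, with *Sox17* at 1.02 against 1.36, *Sox18* at 1.62 against 1.84 and *Sox7* at 0.346 against 0.455.

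The lymphatic genes used for a further split were *Prox1*, a SOX18 target that sets lymphatic identity, and *Lyve1*, which encodes a hyaluronan receptor. In the 561 cells of cluster 2 with a UMI of either, *Sox18* was at 1.89 (1.82–1.96), against 1.74 (1.72–1.76) in the cells with neither. *Sox17* was lower in the same cells, at 0.819 (0.772–0.869) against 1.27 (1.25–1.29), and so was *Sox7*, at 0.288 against 0.426. The *Sox18* gap was narrower than the spread of its level in cluster 2, from 1.57 in library 2 to 1.998 in library 1. The libraries were pooled in this split, so no link of *Sox18* to the lymphatic genes is read. The 6 lymphatic markers together summed to only 1.20 in cluster 2 and at most 1.17 elsewhere, so no cluster had lymphatic markers in number.

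Cells in division had less of each SoxF transcript in clusters 0 and 2. A cell was called cycling when it had at least 2 UMIs of 10 mitotic genes at 5,000 UMIs. In cluster 2, *Sox17* was at 1.19 in 4,834 cycling cells and at 1.72 in the 543 others, *Sox18* at 1.70 and 2.49, and *Sox7* at 0.386 and 0.762. In cluster 0 the levels were 3.05 and 3.96 for *Sox17*, 2.38 and 3.04 for *Sox18* and 0.800 and 1.17 for *Sox7*. Cluster 1 had few cycling cells, 162 of 745, with *Sox17* at 1.70 in them and 1.998 in the rest, and a *Sox18* level within the interval of the rest. Time in culture cannot be told apart from cycling here, as no cell carries its time.

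In clusters 5 and 6, where *Runx1* and the blood markers were highest, all 3 SoxF genes were far below the endothelial clusters. The level of *Runx1* was 1.30 in cluster 5 and 1.67 in cluster 6, against 0.321, 0.156 and 0.0188 in clusters 0, 1 and 2. Relative to clusters 0, 1 and 2 together, *Sox17* was 10.2-fold lower in clusters 5 and 6 (log2 ratio -3.35, -3.44 to -3.26), *Sox18* 9.59-fold (-3.26, -3.34 to -3.18) and *Sox7* 9.45-fold (-3.24, -3.40 to -3.09). In the libraries *Sox17* was 11.6, 8.13 and 10.6-fold lower. Of all 3,286 genes with the minimum mean level, 17.5% were past 1.5-fold lower. *Sox17* and *Sox18* reached that minimum only through clusters 0, 1 and 2 and *Sox7* did not reach it, so nothing is read from this count for the members.

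Clusters 3 and 4, which had neither endothelial nor blood markers in number, held as much SoxF RNA as clusters 5 and 6. *Sox17* stood at 0.184 and 0.186 in clusters 3 and 4, and at 0.144 and 0.123 in clusters 5 and 6. *Sox18* stood at 0.230, 0.199, 0.201 and 0.175 in clusters 3 to 6, and *Sox7* at 0.0561, 0.0507, 0.0526 and 0.0343. Detection at 5,000 UMIs was alike in range, between 5.86% and 13.0% of cells for *Sox17*, 7.62% and 12.1% for *Sox18* and 1.62% and 5.44% for *Sox7*. The source of these levels in clusters 3 to 6 was not tested, so expression by these cells is not read from them. Cluster 3 also varied most between libraries, with *Sox17* at 0.152, 0.321 and 0.0427.

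The endothelial transcript *Cdh5*, which encodes VE-cadherin, moved with these low SoxF levels. Per 100 *Cdh5* UMIs, clusters 0, 1 and 2 together had 28.9 UMIs of *Sox17*, 38.0 of *Sox18* and 9.47 of *Sox7*. Cluster 3 had 28.7 (23.4–34.9), 35.9 (29.8–43.0) and 8.75 (6.17–12.1), and cluster 4 had 33.1, 35.3 and 9.02, all with intervals that hold the values of clusters 0, 1 and 2. In cluster 5 the ratio was 24.6 (22.8–26.5) for *Sox17* and 34.3 (32.1–36.6) for *Sox18*, somewhat lower, and 8.98 (7.98–10.1) for *Sox7*. Cells of cluster 5 with a *Cdh5* UMI had a *Sox17* level of 0.503 (0.463–0.546) and those without one 0.0602 (0.0536–0.0675), at median depths of 21,485 and 39,270 UMIs. The same split gave 0.627 and 0.0539 in cluster 6, 0.483 and 0.0886 in cluster 3 and 0.885 and 0.0665 in cluster 4. Free RNA and doublets were not tested as sources.

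**Figure D3:**
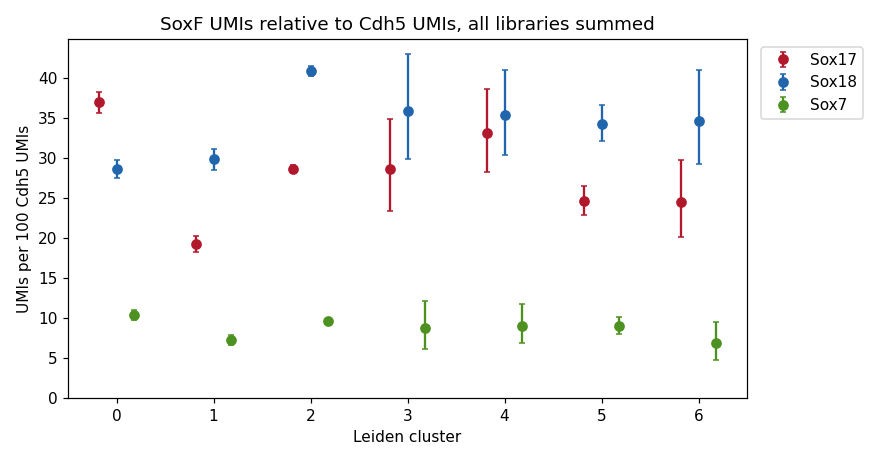
UMIs of each SoxF gene per 100 UMIs of *Cdh5* in each Leiden cluster, all libraries summed, with exact 95% intervals. The ratios in clusters 3 to 6 lie between 24.5 and 33.1 for *Sox17*, within the span of 19.2 to 36.9 over clusters 0 to 2, although the levels are far lower.

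Within the 2 blood-marker clusters the small SoxF signal was uneven. In cluster 5, cells with *Mpo*, a gene of myeloid granules, had *Sox18* at 0.143, cells with the macrophage gene *C1qb* and no *Mpo* at 0.163 and cells with neither at 0.307 (0.282–0.333). In cluster 6 the 115 cells with *Kdr*, which encodes the VEGF receptor 2, had *Sox17* at 0.224 (0.176–0.281) and *Sox18* at 0.340 (0.281–0.409), against 0.0782 and 0.0998 in the 194 without. *Sox7* was at 0.0448 and 0.0297 in these groups, with overlapping intervals. The cells with *Kdr* were also shallower, at a median of 16,877 UMIs against 36,799.5.

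The question closest to EHT is whether endothelial cells that already had *Runx1* RNA differed in SoxF RNA from their neighbours. Cells were called *Runx1*-positive when a *Runx1* UMI was found at 5,000 UMIs, and their levels were taken from all their UMIs. This gave 52 positive and 670 negative cells in cluster 0, 41 and 704 in cluster 1, and 73 and 5,304 in cluster 2. *Runx1* overlaps the antisense gene Gm26626.

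In cluster 0, *Sox17* and *Sox18* were lower in *Runx1*-positive cells. *Sox17* was at 2.61, 1.47 and 1.76 in the positive cells of libraries 1, 2 and 3 and at 3.86, 3.64 and 3.27 in the negative ones. The groups did not overlap, and the summed levels of *Sox17* were 1.96 and 3.58 (log2 ratio -0.87, -1.07 to -0.67). *Sox18* was at 1.56, 1.56 and 1.02 in positive and 3.26, 2.35 and 2.67 in negative cells. These did not overlap either, with sums of 1.44 and 2.78 (-0.95, -1.19 to -0.72). *Sox7* was at 0.684, 0.687 and 0.899 against 0.977, 1.06 and 0.919, and the gap was nearly absent in library 3. Its summed levels were 0.734 and 0.981 (-0.42, -0.77 to -0.09), so 2 of 3 members were past 1.5-fold lower, against 11.4% of 3,515 genes.

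Other endothelial genes were also lower in the *Runx1*-positive cells of cluster 0. All 14 measured arterial genes and 7 of 10 endothelial genes were past 1.5-fold lower, against 11.4% of all genes. Among the arterial genes, *Notch4* (0.413 against 0.946) reached the minimum level only through the negative cells, which favours a call. *Dll4*, a Notch ligand, was at 0.789 against 1.79 and *Kdr* at 2.36 against 5.37. The median log2 ratio was -0.87 over the arterial and -0.70 over the endothelial genes, and 0.02 over all genes measured. *Cdh5* was at 6.17 against 9.59, and per 100 *Cdh5* UMIs the positive cells had 31.8 *Sox17* UMIs (27.1–37.1) against 37.4 (36.1–38.8), with touching intervals. By library this ratio was 45.0, 23.2 and 27.0 in the positive and 41.7, 35.5 and 34.8 in the negative cells, so library 1 went the other way. For *Sox18* the same measure was 23.3 (19.5–27.8) against 29.0 (27.9–30.2), with library 2 the other way at 24.6 against 23.0, and for *Sox7* 11.9 against 10.2. Of the other endothelial transcription factors, 5 of 15 were past 1.5-fold lower, against 11.4% of all genes, led by the flow-responsive *Klf2* (2.21 against 5.44). Among these, *Hey2* (0.330 against 0.672) reached the minimum level only through the negative cells. None of the 15 was past 1.5-fold in the other direction, against 6.63% of all genes. The largest positive ratios in that list, among genes with the same direction in every library, were those of *Tal1* and *Gata2*, both blood regulators. *Tal1* was at 0.642 against 0.449 and *Gata2* at 0.981 against 0.808. The *Gata2* log2 ratio was 0.28 (-0.02 to 0.57), an interval that takes in both directions.

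Blood markers moved with *Runx1* in cluster 0 in each library, and cycling and depth did when pooled. Blood markers summed to 5.20, 5.59 and 2.33 in the positive cells of the 3 libraries and to 1.60, 1.93 and 1.51 in the negative cells. Leaving out all cells with a UMI of 7 blood genes left 21 positive cells, with *Sox17* at 1.73 against 3.88 and *Sox18* at 1.87 against 2.94. Of 10 mitotic genes, 6 were past 1.5-fold higher in the positive cells, against 6.63% of genes, and 67.3% of positive and 51.0% of negative cells were cycling. The mitotic genes summed to 14.6, 31.3 and 26.6 in the positive and 17.3, 13.8 and 14.1 in the negative cells of libraries 1, 2 and 3, so library 1 went the other way. In the cells that were not cycling, 17 of them positive, *Sox17* was at 1.54 against 4.11, *Sox18* at 1.61 against 3.13 and *Sox7* at 0.963 against 1.18. In the cycling cells, 35 of them positive, *Sox17* was at 2.13 against 3.16, *Sox18* at 1.37 against 2.51 and *Sox7* at 0.642 against 0.819. The positive cells were deeper, at a median of 19,861 UMIs against 13,895, and the parts of blood transcripts, cycling and depth in the SoxF difference were not tested.

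**Figure D4:**
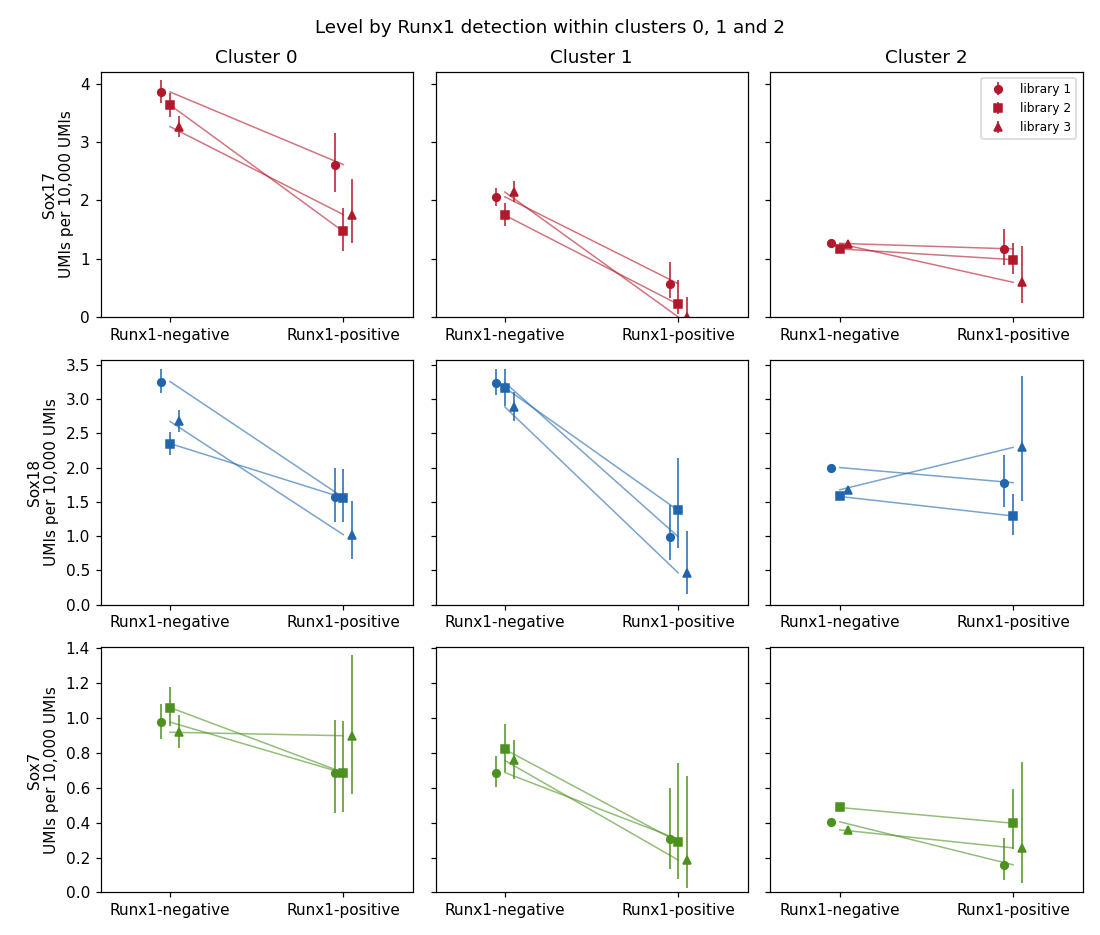
Levels of the 3 SoxF genes (UMIs per 10,000 UMIs) in *Runx1*-negative and *Runx1*-positive cells of clusters 0, 1 and 2. Each line joins the 2 groups of 1 library and bars are exact 95% Poisson intervals. *Sox17* is lower in the positive cells of every library in all 3 clusters, with log2 ratios of -0.87, -2.51 and -0.27 in clusters 0, 1 and 2, and *Sox18* in cluster 2 goes the other way in library 3.

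The same split was wider in cluster 1. *Sox17* was at 0.571 and 0.217 in the positive cells of libraries 1 and 2, and at 2.06 and 1.75 in the negative cells. In library 3 the 7 positive cells held 0 UMIs of *Sox17*, which is at least 7.70-fold below the 2.14 of the negative cells when 3 UMIs are taken as the limit. Over all libraries *Sox17* was at 0.354, from 18 UMIs, against 2.02 (log2 ratio -2.51, -3.27 to -1.85). This ratio was -4.02 without library 1 and -3.37 with another random draw of UMIs to call the positive cells. *Sox18* was at 0.983 against 3.11 (-1.66, -2.09 to -1.26) and *Sox7*, from 14 UMIs, at 0.275 against 0.740 (-1.43, -2.31 to -0.67). All 3 members were past 1.5-fold lower, against 17.4% of 3,607 genes, but *Sox17* and *Sox7* reached the minimum level only through the negative cells. The median log2 ratio over all genes was -0.15.

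Blood transcripts were far more abundant in these 41 cells. The blood markers summed to 55.8 against 8.83, and 10 of 11 measured ones were past 1.5-fold higher, against 11.2% of genes. Some of these reached the minimum level only through the positive cells, such as *Itgam* (1.20 against 0.0771). All 10 endothelial markers were past 1.5-fold lower, against 17.4% of genes, with *Cdh5* at 4.42 against 10.3. Without cells that had a UMI of the 7 blood genes, 16 positive cells remained and the gap was smaller, with *Sox17* at 0.774 against 2.21 (log2 ratio -1.51) and *Sox18* at 1.77 against 3.53 (-0.997). Per 100 *Cdh5* UMIs, *Sox17* was at 8.0 (4.66–12.9) against 19.6 (18.5–20.7) and *Sox18* at 22.2 (16.02–30.3) against 30.2 (28.8–31.6). When pooled, the *Sox17* gap was thus larger than that of *Cdh5* itself in cluster 1, while the *Sox18* intervals overlapped. In library 1, which held 15 of the 18 *Sox17* UMIs, the ratio was 14.4 (7.79–24.9) against 20.7 (19.1–22.4), with overlapping intervals. Libraries 2 and 3 were at 3.33 and 0 against 15.2 and 21.5, from 3 and 0 UMIs. Stromal markers moved too, with sums of 2.86, 30.9 and 0.835 in the positive cells of libraries 1, 2 and 3 and of 2.34, 1.59 and 2.44 in the negative cells, so their excess lay in library 2. The part of blood or stromal RNA in the SoxF difference was not tested.

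In cluster 2, which held most of the endothelial cells, the log2 ratios of *Sox17* and *Sox18* were closer to 0. *Sox17* was at 1.17, 0.983 and 0.595 in the positive cells of libraries 1, 2 and 3 and at 1.26, 1.17 and 1.26 in the negative cells. *Sox18* was at 1.78, 1.29 and 2.30 against 2.0003, 1.58 and 1.68, higher in the positive cells of library 3 and lower in the other libraries, while *Sox17* was lower in all 3. The summed log2 ratios were -0.27 (-0.54 to -0.01) for *Sox17*, -0.14 (-0.35 to 0.07) for *Sox18* and -0.55 (-1.08 to -0.07) for *Sox7*, so the *Sox7* ratio was no closer to 0 than in cluster 0. Those of *Sox17* and *Sox7* changed sign under other definitions of a positive cell. None of the 2 members measured was past 1.5-fold lower, as were 0.0604% of 3,311 genes, and 0.664% were past it in the other direction. *Cdh5* was at 4.27 against 4.29, and per 100 *Cdh5* UMIs *Sox7* was at 6.63 (4.54–9.38) against 9.65 (9.39–9.91). Of the 73 positive cells, 52 came from library 2, and the positive cells were shallower, at a median of 10,389 UMIs against 22,675. *Runx1* RNA was at 0.840 in the positive cells of cluster 2 and 2.41 in those of cluster 0. The difference between clusters in the size of the gap was not tested.

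Graded by the number of *Runx1* UMIs at deposited depth, the levels of *Sox17* and *Sox18* in cluster 0 went down in steps. *Sox17* was at 3.77 (3.65–3.89) in 638 cells with 0 *Runx1* UMIs, 2.64 (2.30–3.02) in 32 cells with 1, and 1.54 (1.35–1.75) in 58 cells with 2 or more. *Sox18* was at 2.89, 2.03 and 1.45. *Sox7* was at 1.014 (0.954–1.078), 0.956 (0.753–1.197) and 0.574 (0.459–0.710), with overlapping intervals between 0 and 1 *Runx1* UMIs. *Cdh5* went from 9.95 over 7.98 to 5.51. *Ptprc* was between 0.0126 and 0.0136, but from only 14, 1 and 2 UMIs, too few to read a course from. Median depth rose over these groups, from 13,420.5 over 21,692 to 22,979 UMIs, and it also rose in clusters 1 and 2. In cluster 1 *Sox17* was at 2.20, 0.485 and 0.236, and *Ptprc* at 0.0438, 0.788 and 1.25. In cluster 2 *Sox17* was at 1.23, 1.24 and 1.07.

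Read in the other direction, *Runx1* was found most often in cells of clusters 0 and 1 that showed no SoxF gene. In cluster 0, *Runx1* was detected in 12 of 52 cells with no SoxF gene (23.1%, 12.5–36.8%) and 24 of 182 cells with 1 (13.2%, 8.64–19.0%). It was detected in 11 of 342 cells with 2 SoxF genes (3.22%, 1.62–5.68%) and 5 of 146 with all 3 (3.42%, 1.12–7.81%). In cluster 1 the shares were 13.8%, 5.14%, 1.99% and 1.22%, from 0 to 3 SoxF genes. In cluster 2 they were 1.74%, 1.29%, 1.35% and 0.351%, with overlapping intervals. *Runx1* and SoxF RNA were thus found under the same barcodes. Of 52 *Runx1*-positive cells of cluster 0, all but 12 had at least 1 SoxF gene, and of all 722 cells of cluster 0, all but 52 did. Doublets and free RNA were not tested as sources.

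**Figure D5:**
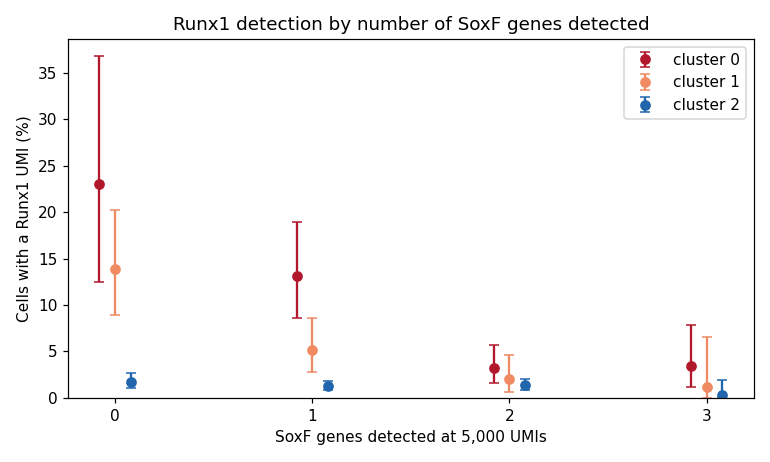
Share of cells with a *Runx1* UMI (%) by the number of SoxF genes detected in the same cell at 5,000 UMIs, in clusters 0, 1 and 2, with exact 95% binomial intervals. In cluster 0 the share is 23.1% with no SoxF gene and 3.42% with all 3, and in cluster 2 it stays at or below 1.74%.

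The likeness of other genes to each member was measured by Pearson's r of log2 levels over 21 points, the 7 clusters in each of the 3 libraries. It is a description, as the points share libraries and clusters and most of the spread lies between clusters 0 to 2 and the rest. Of 8,782 genes, those most like *Sox17* were *Cd40* (r = 0.989), which encodes a TNF-receptor family member, *Ecscr* (0.986) and *Mmrn2* (0.986), both endothelial surface or matrix genes, *Sox7* (0.983) and *Depp1* (0.982). Those most like *Sox18* were *Ecscr* (0.994), the tight junction gene *Cldn5* (0.991), *Cdh5* (0.989), *Rasip1* (0.987) and *Nos3* (0.983), which encodes endothelial nitric oxide synthase. Those most like *Sox7* were *Mmrn2* (0.995), *Cdh5* (0.993), *Ecscr* (0.988), *Acvrl1* (0.987) and *Icam2* (0.987). *Cd40* and *Depp1*, like *Sox17*, were highest in cluster 0, with *Cd40* at 0.775, 0.473 and 0.357 and *Depp1* at 1.23, 0.666 and 0.324 in clusters 0, 1 and 2. Of the genes most like *Sox18*, *Cldn5*, *Cdh5*, *Rasip1* and *Nos3* were highest in cluster 1, as *Sox18* was, and *Ecscr* was highest in cluster 0 (7.22 against 6.69 in cluster 1). In clusters 0, 1 and 2, *Cldn5* was at 8.69, 9.87 and 6.58 and *Rasip1* at 2.38, 3.59 and 2.36.

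The 10 genes *Cldn5*, *Vcam1*, *Mmp7*, *Prox1*, *Dll4*, *Notch1*, *Robo4*, *Cdh5*, *Kdr* and *Flt4*, known as direct SoxF targets, were followed as a list, of which *Cldn5*, *Cdh5*, *Kdr*, *Dll4* and *Notch1* are also on the endothelial or arterial lists above. Of the 6 measured between clusters 0 and 2, 3 were past 1.5-fold higher in cluster 0 (12.9% of all genes), among them *Dll4* (1.71 against 0.343) and *Notch1* (2.04 against 0.900), and 1 was lower, the lymphatic receptor gene *Flt4* (0.433 against 0.802). *Dll4* and *Flt4* reached the minimum level only through the cluster where they were higher. In the *Runx1* split of cluster 0, 4 of 5 were past 1.5-fold lower in the positive cells (11.4% of all genes). In cluster 1, 6 of 7 were lower (17.4% of all genes), led by *Dll4* (0.393 against 2.19), and *Vcam1*, which encodes an adhesion molecule, was higher (2.24 against 1.07). *Dll4* reached the minimum level there only through the negative cells. In cluster 2 none of 5 was past 1.5-fold in either direction, as 0.0604% and 0.664% of all genes were. The median log2 ratio of the list was -0.84, -1.88 and -0.03 in clusters 0, 1 and 2.

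The promoter windows of these targets were searched for the core letters that SOX proteins bind, ACAAT or ATTGT on the other strand. RefSeq windows (GRCm38.p6) reach from 250 bases before to 50 bases after a start, and 31.0% of all 32,851 windows hold a match. Of the 10 targets, 8 have a window, and 2 of these hold a match, *Mmp7*, which had no UMI in any cluster, and *Robo4*, an endothelial guidance receptor gene. The 250 bases before the *Robo4* start (chr9:37401722-37401971, plus strand) are shown because *Robo4* is the one expressed target with matches. Capitals mark both matches, which begin at bases 26 and 37.
Robo4: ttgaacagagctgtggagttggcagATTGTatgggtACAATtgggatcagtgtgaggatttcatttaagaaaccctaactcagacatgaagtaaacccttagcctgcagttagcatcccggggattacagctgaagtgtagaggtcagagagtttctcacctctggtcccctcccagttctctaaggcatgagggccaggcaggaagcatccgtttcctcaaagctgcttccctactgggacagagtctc

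*Robo4* was at 0.462, 0.770 and 0.460 in clusters 0, 1 and 2 and between 0.0446 and 0.0771 in the others. Its highest level was thus in cluster 1, and its intervals in clusters 0 and 2 overlapped, although all 3 SoxF genes were higher in cluster 0 than in cluster 2. A match of letters is not a binding site.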

How the data were processed

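Sequencing libraries were made with 10x Genomics 3′ v3 chemistry. Reads were processed with Cell Ranger 3.1.0 on mm10, and the libraries were aggregated with batch-effect removal. The submitters' processing notes also list Seurat 3.1.5. The gene annotation was not given in the sources used here. The authors deposited raw UMI counts per Ensembl gene and cell, for singlets that their methods limit to cells with at least 5,000 UMIs, although 90 of the 9,562 cells had fewer in the table. The authors also deposited normalised values, counts per 10,000 (CPTT) on a natural log scale after adding 1, which were recomputed from the counts with negligible difference. A further deposited table gives the Leiden cluster number of each cell, from scanpy. UMAP coordinates were not used, and doublets were not called again.

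Names came from GENCODE release M21 for 27,645 of 27,998 rows, and equal names were summed. UMIs of a gene were summed over groups of cells and divided by all their UMIs. Shares used 5,000 UMIs drawn without replacement (seed 1). Intervals are exact Poisson for sums, Clopper–Pearson for shares and conditional binomial for log2 ratios, at 95%. For a group with 0 UMIs, 3 UMIs over that group were the limit. A ratio of 1.5 in genes with a mean level of at least 0.5 UMIs per 10,000 was counted as a call. Likeness used log2(level + 0.05) and genes with a mean level of at least 0.1. No library could be tied to a labelled pool, so the matrix was treated as 1 sample, values by library are given as a description and no P values are given. The calls were tested on simulated data with 200 changed genes. The members and the lists (endothelial, arterial, venous, lymphatic, blood, stromal, cycling, SoxF target, endothelial transcription factor and other Sox genes) were chosen with earlier results of these data known. The genes named are the members, *Runx1*, the 5 genes most like each member, up to 2 per list and direction with the largest ratio that had the same direction in every library, and the genes used to split cells. *Cdh5*, *Ptprc*, *Robo4* and *Mmp7* were named beyond this rule. Alternatives left out each library, averaged over cells, used thinned counts, left out the deepest 5% of cells or changed how *Runx1*-positive cells were called. The tools were scipy 1.17.1, pandas 2.3.3, matplotlib 3.10.9 and numpy 2.4.6 under Python 3.11.15. The mouse line is not reported here.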

Additional observations from a re-analysis of the deposited data

How the results depend on the processing

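Of 261 alternative values, 188 were counted as the same as the main value, 68 as moved and 5 as reversed in sign. Moved values include both larger and smaller differences than the main one. These counts do not show that every other value kept its sign. The cause was not tested for any of the 261 values. All 5 lay in the *Runx1* split of cluster 2. There the log2 ratio of *Sox17* became 0.14 with positive cells called above 0.5 CPTT and 0.22 without blood-gene cells. That of *Sox7* became 0.16 above 0.5 CPTT, 0.15 with at least 2 *Runx1* UMIs and 0.19 with a second random draw, but -1.16 without blood-gene cells and -1.11 to -0.17 with each library left out. *Sox18* was at -0.69 with at least 2 UMIs and -1.12 without cycling cells, which left 3 positive cells.

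In cluster 0, *Sox17* (-0.87) was at -1.26 with at least 2 UMIs, -1.10 thinned, -1.19 with a second draw, -1.17 without blood-gene cells, -1.41 without cycling cells, an alternative chosen after seeing the data, and -1.13 to -0.63 with each library left out. *Sox18* was at -0.65 without blood-gene cells, and *Sox7* at -0.81 with at least 2 UMIs and -1.05 thinned. In cluster 1, *Sox17* was at -3.37 with a second draw, -1.51 without blood-gene cells, -4.02 without library 1 and -2.12 without library 3. *Sox18* was at -0.997 without blood-gene cells and *Sox7* at -0.64 above 0.5 CPTT. With a minimum level of 0.1, 1.62% of genes in cluster 2 were past 1.5-fold lower and 4.34% higher.

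Between clusters 0 and 2, *Sox17* was at 1.60 thinned, 1.54 as a mean over cells and 1.43 to 1.56 with each library left out, and *Sox7* at 1.04 thinned. Between clusters 1 and 2, *Sox17* was at 0.78 and 0.74 (thinned and mean over cells), *Sox18* at 0.70 thinned and 0.68 to 0.82 with each library left out, and *Sox7* at 0.60 thinned. In clusters 5 and 6, *Sox17* was at -3.17 thinned, -3.08 as a mean, -3.60 without the deepest cells and -3.47 to -3.24 by library left out, *Sox18* at -2.99, -2.92 and -3.41 to -3.16, and *Sox7* at -2.73 and -2.89. The *Sox17* share of SoxF UMIs in cluster 2 was 35.2% to 37.2%.

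Above 0.5 CPTT, *Sox17* was found in 90.9%, 59.1% and 64.5% of clusters 0, 1 and 2, *Sox18* in 89.8%, 67.7% and 84.3%, and *Sox7* in 59.2%, 40.05% and 32.5%. *Sox17* in cluster 0 was found in 71.9% with a second draw. With each library left out, *Sox18* was found in 67.1% to 73.3% of cluster 0 and 52.8% to 58.5% of cluster 2, *Sox7* in 18.4% to 20.5% of cluster 2, and no SoxF gene in 4.11% to 9.33% of cluster 0. At deposited depth *Runx1* was found in 26.6% and 5.07% of cells with no SoxF gene in clusters 1 and 2, and in 11.48%, 5.17% and 3.83% of those with 2 or 3 in clusters 0, 1 and 2. A second draw gave 0.602% for 2 or 3 in cluster 1. With a pseudocount of 0.5, 2, 3 and 3 of the 5 genes most like *Sox17*, *Sox18* and *Sox7* stayed.

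Which cells count as *Runx1*-positive depends on the random draw, and cluster 1 rests on 18 *Sox17* and 14 *Sox7* UMIs. No paired analysis was possible because the values come from no test, and library values are given side by side.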

Other observations

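Of 17 other Sox genes in the count table, *Sox4*, a SoxC gene, was the most abundant and was at 6.70, 4.43 and 3.41 UMIs per 10,000 in clusters 0, 1 and 2, above each SoxF gene. Unlike the SoxF genes, *Sox4* was also high in cluster 4, at 6.10, where the stromal markers were. *Sox11*, of the same group, was at 5.34 in cluster 4 and 1.72 in cluster 2. *Sox2*, a pluripotency and neural gene, was at 3.11 in cluster 3 and at most 0.324 elsewhere. *Sox9*, known from cartilage and neural crest, was at 1.22 in cluster 4 and at most 0.0406 elsewhere. *Sox6* was at 0.679 in cluster 0 and at most 0.258 elsewhere, so it shared its highest cluster with *Sox17*. So did *Sox4* and *Sox13*, the latter at 0.365 in cluster 0 and at most 0.254 elsewhere.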
